A study of Homo sapiens with 6 samples.

Results

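Of the 20263 genes in the count table of this series, 8 were selected on measured counts that were higher after venetoclax plus cyclosporine A (CSA) than after at least 1 of the drugs alone: SEMA6B, CHI3L1, THBS1, CYP1B1, GAS7, ADM2, XPO4 and MS4A7. They were picked as mostly secreted, adhesion or shape genes, so that these functions are part of the choice too. The choice used the values described here, so the contrasts of the combination with each agent are given as description, without a test. CSA against venetoclax is the difference between those contrasts and is treated in the same way. The rule gave no numerical threshold.

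The RNA came from MV4-11, a human acute myeloid leukemia cell line with an internal tandem duplication of FLT3, the receptor tyrosine kinase of early myeloid cells. All groups were this line, labelled WT for genotype, and all were sampled after 24 h of treatment. The treatment field of every sample names gavage, which is not a treatment of cultured cells, so groups were taken from the sample titles and doses from the culture protocol. The combination group received both drugs, at doses the labels do not give apart from the single agents. The CSA group received CSA at 2.5 µM, and the venetoclax group received venetoclax at 100 nM. Each group had 2 libraries. Nothing in the labels says whether they came from separate cultures, so the spread between replicates may be technical. Venetoclax blocks the survival protein BCL2, and CSA binds cyclophilins and so inhibits the phosphatase calcineurin.

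Most of the 8 genes act outside the cell, at its surface or on its shape. THBS1 and CHI3L1 encode secreted glycoproteins of matrix and inflammation, and ADM2 encodes a secreted peptide hormone. SEMA6B and MS4A7 encode membrane proteins, and GAS7 encodes a protein that bends membranes and organises actin. CYP1B1, an enzyme of the endoplasmic reticulum, and XPO4, a nuclear transport receptor, work inside the cell. In myeloid cells CHI3L1, THBS1 and MS4A7 are known as products of monocytes and macrophages.

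Total counts per library ranged from 26567900 to 30738957. Levels are CPM, the count relative to library size, after scaling by the trimmed mean of M-values (TMM), and 12690 genes, all 8 among them, passed the filter on low counts. Venetoclax replicate 2 stood apart, with 41.5% of its counts on mitochondrially encoded genes against 7.41% to 15.2% in the other 5 libraries. Its TMM factor was 0.657, against 1.02 to 1.12 elsewhere, so the log2 fold changes over venetoclax that are printed for the 8 genes, and for the lists and list genes, are also given without it. All 10 markers of the leukemia line passed the filter, KIT with the lowest levels, at 0.364 to 1.20 CPM. With the combination, 5 had a positive log2 fold change over CSA (median 0.01). Over venetoclax 6 did (median 0.09, or 0.05 without venetoclax replicate 2). MPO, the peroxidase of myeloid granules, was the only one whose combination libraries lay beyond all single-agent libraries. It was at 5.46 and 6.22 CPM with the combination, 7.67 and 7.11 CPM with CSA and 9.32 and 9.02 CPM with venetoclax. Of 5 T cell markers 4 had no count in any library, and no B cell, erythroid and platelet, or epithelial and fibroblast list summed to more than 5.74 unscaled CPM in any library. The B cell list had the highest of these sums. In bulk RNA, a change in the share of cells that express a gene and a change in RNA per cell cannot be told apart.

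Both combination libraries lay above all 4 single-agent libraries for 7 of the 8 genes, the exception being XPO4. Among all tested genes 10.5% did so. Set against CSA alone, 8 of 8 had both combination libraries above both CSA libraries (23.5% of tested genes), 7 of them by at least 1.5-fold (3.55%). Set against venetoclax alone these counts were 7 of 8 (19.2%) and 7 of 8 (7.58%). With a further requirement of at least 1.5-fold over the mean of each agent, 6 of 8 met the pattern called here above both agents, which 1.85% of all tested genes met: THBS1, CYP1B1, CHI3L1, SEMA6B, GAS7 and ADM2. XPO4 was already high with venetoclax alone, a pattern of 5.98% of tested genes, and MS4A7 fell between the patterns. At this fold 0 of 8 met the pattern of a gene already high with CSA, against 5.75% of tested genes. These shares restate how the 8 genes were chosen and are not evidence about them. The pattern names only compare the groups with each other. Untreated cells were not analysed here, so a gene raised by 1 agent and a gene lowered by the other cannot be told apart.

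**Figure D1:**
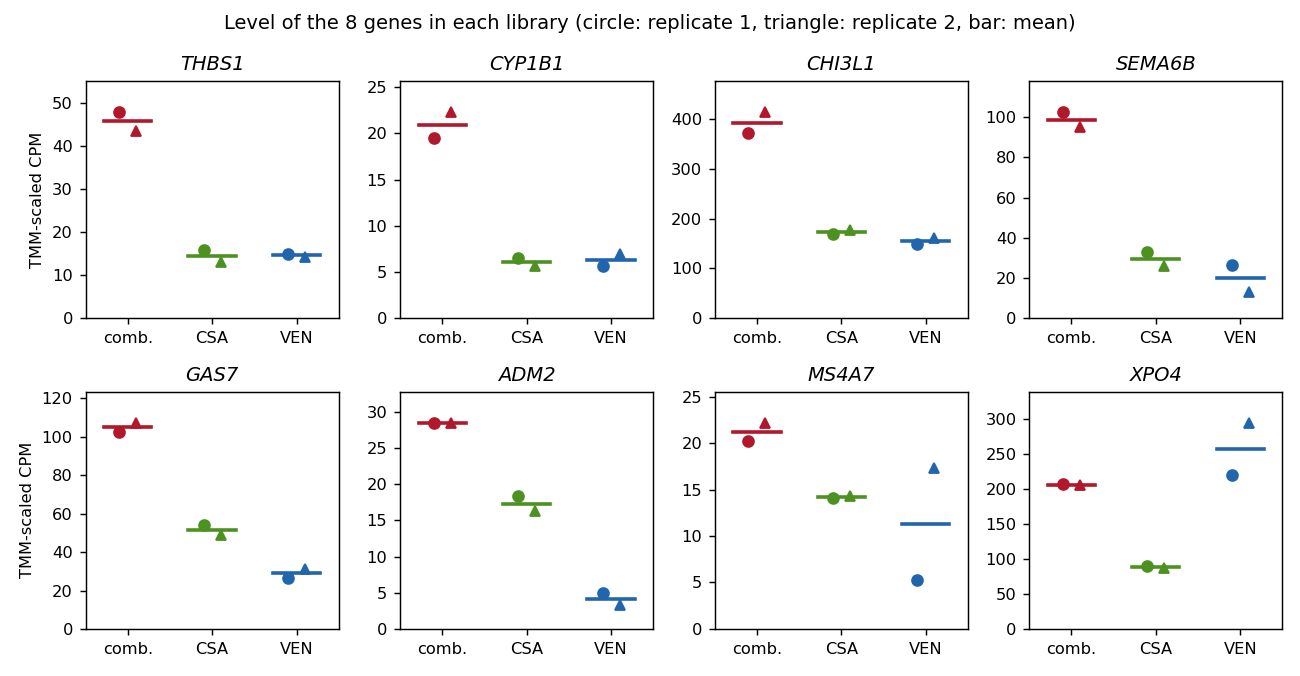
TMM-scaled CPM (vertical axis, from 0) of the 8 genes in each library of the combination, CSA and venetoclax (VEN) groups, with circles for replicate 1, triangles for replicate 2 and bars for the mean of 2. The combination points lie above all others except for XPO4, where the venetoclax points at 219.5 and 294.6 CPM are the highest, and MS4A7 shows the widest gap between venetoclax replicates in log2 terms (1.70), though not in CPM.

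THBS1 encodes thrombospondin-1, a matrix glycoprotein that binds the receptors CD36 and CD47. The gene lies at chr15:39581079-39599466 on the plus strand (ENSG00000137801, GRCh38). Its level was 48.0 and 43.7 CPM with the combination, against 15.9 and 13.1 CPM with CSA and 14.9 and 14.3 CPM with venetoclax. The single agents overlapped with each other, and the lowest combination library was 2.74 times the highest single-agent library. The log2 fold change was 1.66 (SE 0.19) over CSA and 1.65 (SE 0.19) over venetoclax, or 1.62 without venetoclax replicate 2. CSA differed from venetoclax by −0.01 (SE 0.18), or −0.04 without venetoclax replicate 2. THBS1 with either drug alone was thus at about the same level.

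CYP1B1, a cytochrome P450 that oxidises estradiol and aromatic hydrocarbons and is a classical target of the aryl hydrocarbon receptor, had the same shape at a lower level. It lies at chr2:38066973-38109902 on the minus strand (ENSG00000138061). The 2 combination libraries held 19.5 and 22.3 CPM, the CSA libraries 6.48 and 5.70 CPM and the venetoclax libraries 5.69 and 6.95 CPM. The single agents again overlapped. The combination exceeded CSA by 1.78 (SE 0.22) and venetoclax by 1.73 (SE 0.22) on the log2 scale, or by 1.88 over venetoclax without its replicate 2. After centring each gene on its own mean of log2 CPM over the 6 libraries, THBS1 and CYP1B1 differed by a root mean square of 0.15, the smallest of the 28 differences between pairs of the 8 genes.

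CHI3L1 encodes a secreted chitinase-like glycoprotein that binds chitin but does not cleave it. It lies at chr1:203178931-203186749 on the minus strand (ENSG00000133048). It was at 371 and 414 CPM with the combination, against 169 and 176 CPM with CSA and 150.1 and 160.3 CPM with venetoclax. Both CSA libraries were above both venetoclax libraries, but by a factor of only 1.05 between the nearest values. Log2 fold changes of the combination were 1.18 (SE 0.15) over CSA and 1.34 (SE 0.15) over venetoclax, 1.39 without venetoclax replicate 2. Per kilobase of exon CHI3L1 was the most abundant of the 8 genes in every group, at 115 CPM per kilobase with the combination, 50.7 with CSA and 45.5 with venetoclax.

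The nearest tested gene to CHI3L1 is MYBPH, a myosin-binding protein gene on the same strand at chr1:203167811-203175813, 3117 bp away. MYBPH was also 1 of the 2 genes whose centred profile was closest to that of CHI3L1 among 9867 genes searched, with a root mean square difference of 0.17 in log2 CPM over 6 libraries. It held 84.0 and 86.9 CPM with the combination, against 43.9 and 44.3 CPM with CSA and 45.2 and 37.3 CPM with venetoclax. Because these neighbours had similar profiles, their RefSeq promoter windows (250 bases before to 50 after the start, GRCh38.p14) are shown, CHI3L1 at chr1:203186655-203186954 and MYBPH at chr1:203175777-203176076, both on the minus strand. All letters are in lower case because none of the 5 motifs searched on both strands occurred in either: the ATF4 composite element TGATGNAA, the xenobiotic response element core GCGTG, the AP-1 site TGANTCA, the E-box CACGTG and the cyclic AMP response element TGACGTCA. These motifs occur, in that order, in 3.62%, 36.5%, 7.71%, 7.26% and 1.85% of all 35116 windows of that set.
CHI3L1: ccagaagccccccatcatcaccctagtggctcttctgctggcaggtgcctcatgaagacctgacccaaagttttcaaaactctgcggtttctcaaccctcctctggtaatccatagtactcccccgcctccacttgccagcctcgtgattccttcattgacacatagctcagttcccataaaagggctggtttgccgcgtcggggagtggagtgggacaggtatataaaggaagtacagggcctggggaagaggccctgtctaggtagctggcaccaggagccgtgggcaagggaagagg
MYBPH: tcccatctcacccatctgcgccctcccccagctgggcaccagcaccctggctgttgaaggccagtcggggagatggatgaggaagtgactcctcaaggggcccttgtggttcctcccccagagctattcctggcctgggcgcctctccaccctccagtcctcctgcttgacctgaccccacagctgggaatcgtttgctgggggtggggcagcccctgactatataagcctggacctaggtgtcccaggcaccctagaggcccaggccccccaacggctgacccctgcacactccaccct

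SEMA6B encodes a transmembrane semaphorin, a ligand of plexin receptors that guides axons and cell movement. It lies at chr19:4542593-4559808 on the minus strand (ENSG00000167680). With the combination it reached 102.6 and 95.0 CPM, against 33.0 and 25.8 CPM with CSA and 26.4 and 13.3 CPM with venetoclax. CSA replicate 2 fell just under venetoclax replicate 1, so the single agents overlapped, while the lowest combination library was 2.88 times the highest of them. The combination was higher by 1.75 (SE 0.35) than CSA and by 2.31 (SE 0.35) than venetoclax in log2 terms. The second value was 1.91 without venetoclax replicate 2, whose level was about a log2 unit (0.99) below its replicate. That gap enters both SE, which rest on a spread shared by all libraries. CSA alone was 0.56 (SE 0.34) above venetoclax, a value that was 0.16 without venetoclax replicate 2 and 1.149 without replicate 1. LRG1 encodes a secreted glycoprotein and lies 2118 bp from SEMA6B on the same strand. Its level was 64.1 and 64.6 CPM with the combination, against 39.0 and 42.3 CPM with CSA and 34.7 and 20.6 CPM with venetoclax.

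GAS7 encodes an F-BAR protein that binds membranes and actin filaments, and is known as a fusion partner of KMT2A in leukemia. The gene lies at chr17:9910609-10198551 on the minus strand (ENSG00000007237). Its levels formed 3 steps, with 102.6 and 107.4 CPM in the combination, 53.9 and 48.9 CPM with CSA and 26.8 and 31.3 CPM with venetoclax. No group overlapped another. The log2 fold change was 1.03 (SE 0.16) over CSA and 1.86 (SE 0.17) over venetoclax, and CSA exceeded venetoclax by 0.83 (SE 0.16). Without venetoclax replicate 2 the last pair of values was 1.98 and 0.95.

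ADM2 encodes adrenomedullin 2, also called intermedin, a peptide of the calcitonin gene-related family that acts through CALCRL with a RAMP co-receptor and widens vessels. It lies at chr22:50481556-50486440 on the plus strand (ENSG00000128165). It was at 28.5 and 28.4 CPM with the combination, against 18.3 and 16.3 CPM with CSA and 4.98 and 3.29 CPM with venetoclax. The venetoclax values rest on 147 and 62 counts, the fewest of any group for any of the 8 genes. The groups did not overlap, and the wider step was between CSA and venetoclax. Over CSA the combination was higher by 0.72 (SE 0.24) in log2 terms and over venetoclax by 2.77 (SE 0.26), with CSA above venetoclax by 2.05 (SE 0.25). Without venetoclax replicate 2 the last pair was 2.52 and 1.80.

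The RefSeq promoter windows of ADM2 (chr22:50481293-50481592) and THBS1 (chr15:39580829-39581128), both on the plus strand, are shown because these genes differed most in the position of CSA among those with a window and above both agents. On the log2 scale, ADM2 with CSA lay nearer to the combination than to venetoclax, though below the combination. THBS1 with CSA lay at the venetoclax level. Capitals mark the only motif found in each, the xenobiotic response element core GCGTG, at position −225 from the start of ADM2 and −227 from that of THBS1. The match is a description of these letters, not a binding site, and 36.5% of all windows hold it. Of the 8 genes 5 matched the promoter table, and XPO4 has 2 windows there, each with the same GCGTG match. The G and C content was 76.7% for ADM2, 70.0% for THBS1, 56.0% for CHI3L1 and 39.3% for MS4A7, where the median of all windows was 58.7%.
ADM2: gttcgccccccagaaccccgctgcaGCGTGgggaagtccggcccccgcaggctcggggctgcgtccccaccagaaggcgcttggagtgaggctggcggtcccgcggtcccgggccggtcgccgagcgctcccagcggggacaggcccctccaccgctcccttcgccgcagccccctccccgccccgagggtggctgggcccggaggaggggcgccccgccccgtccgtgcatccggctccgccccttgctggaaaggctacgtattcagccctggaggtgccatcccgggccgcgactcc
THBS1: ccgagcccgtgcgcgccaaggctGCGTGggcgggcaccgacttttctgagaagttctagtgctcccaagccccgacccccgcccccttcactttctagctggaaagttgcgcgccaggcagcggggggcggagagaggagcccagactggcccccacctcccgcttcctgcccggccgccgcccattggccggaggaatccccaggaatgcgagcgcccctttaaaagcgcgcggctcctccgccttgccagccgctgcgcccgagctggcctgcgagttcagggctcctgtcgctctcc

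**Figure D2:**
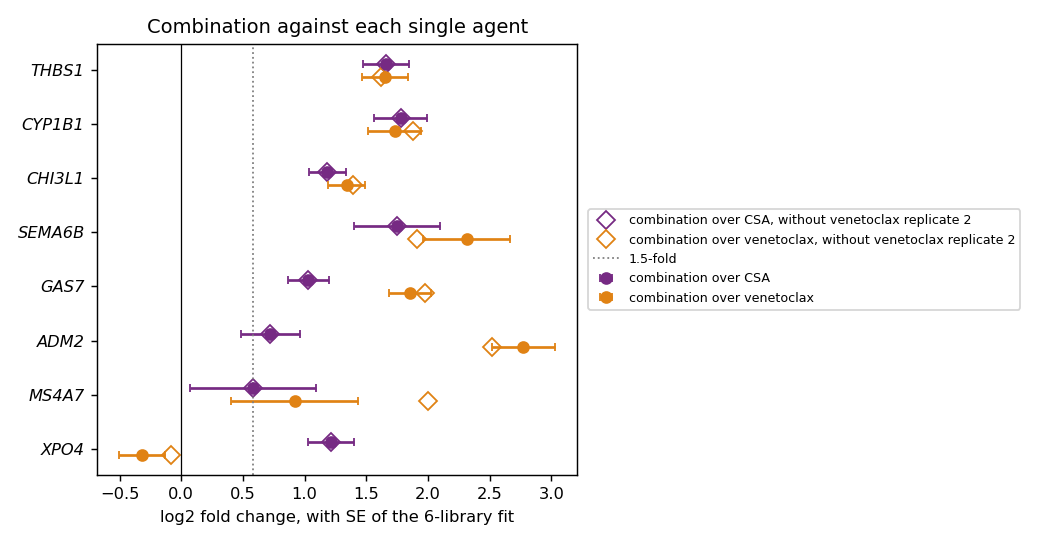
Log2 fold change of the combination over CSA (purple) and over venetoclax (orange) for the 8 genes, as circles with SE from all 6 libraries and open diamonds without venetoclax replicate 2, and a dotted line at 1.5-fold. Both contrasts use the same combination libraries. THBS1, CYP1B1 and CHI3L1 have nearly equal values in both contrasts, ADM2 and GAS7 are farther above venetoclax than above CSA, and XPO4 is above CSA only.

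The genes above both agents therefore differed in where CSA alone lay between venetoclax and the combination. As a share of the log2 difference between combination and venetoclax, CSA alone held −0.63% for THBS1, −2.95% for CYP1B1, 11.6% for CHI3L1 and 24.3% for SEMA6B. For GAS7 that share was 44.5% and for ADM2 74.1%. Without venetoclax replicate 2 the 6 shares were −2.31%, 5.44%, 15.01%, 8.37%, 47.9% and 71.5% in the same order. THBS1, CYP1B1 and CHI3L1 were thus near the venetoclax level with CSA alone. The position of SEMA6B depends on which venetoclax library is used, and ADM2 had most of its difference with CSA alone. Both CSA libraries were above both venetoclax libraries for 3 of 8 genes, CHI3L1, GAS7 and ADM2, against 19.9% of all tested genes. At 1.5-fold or more there were 2 of 8, GAS7 and ADM2, against 6.21%.

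**Figure D3:**
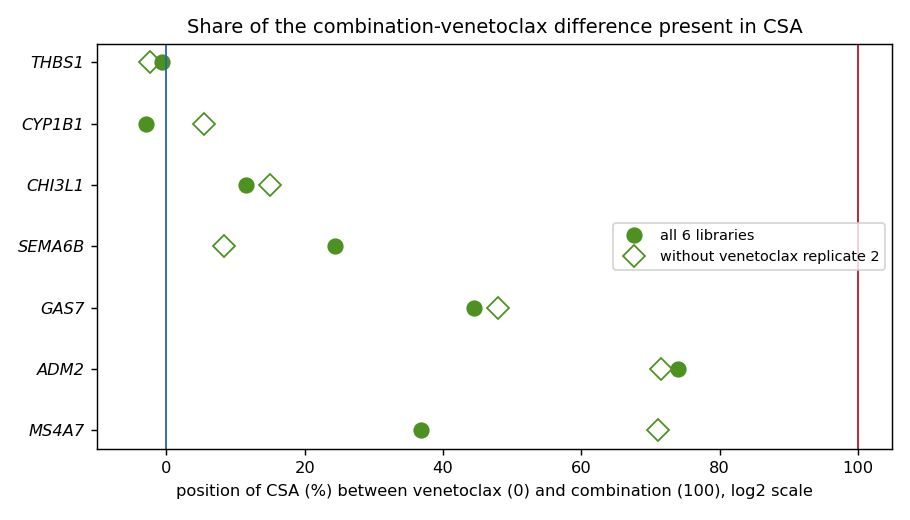
Position of the CSA group, in percent of the log2 difference from venetoclax (0, blue line) to the combination (100, red line), for the 7 genes whose combination level was above venetoclax, with all 6 libraries (circles) and without venetoclax replicate 2 (diamonds). THBS1 and CYP1B1 sit near 0, ADM2 at 74.1 and 71.5, and MS4A7 moves between 36.8 and 71.1.

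MS4A7 encodes a multi-pass membrane protein of the family that includes CD20 and marks macrophages. It lies at chr11:60378482-60395951 on the plus strand (ENSG00000166927). It was at 20.3 and 22.2 CPM with the combination, against 14.0 and 14.3 CPM with CSA and 5.32 and 17.3 CPM with venetoclax. The combination was highest, but the venetoclax replicates lay on either side of CSA and differed by 1.70 in log2 CPM. The ratio of means to CSA was 1.496, just under the 1.5-fold line, while ADM2 at 1.65 was the closest above it. Log2 fold changes were 0.58 (SE 0.51) over CSA and 0.92 (SE 0.52) over venetoclax, where the value was 2.00 without venetoclax replicate 2 and 0.30 without replicate 1. Both SE rest on a spread shared by all 6 libraries, so the gap between the venetoclax replicates enters the SE over CSA too. Replicate 1 minus replicate 2 was −0.13 in log2 CPM with the combination and −0.03 with CSA. Without venetoclax replicate 2, CSA held 71.1% of the difference and MS4A7 met the pattern of a gene already high with CSA. MS4A14, which shares up to 135 bp of exon with MS4A7 on the same strand, had 374 and 519 counts with the combination, 224 and 414 with CSA and 208 and 476 with venetoclax, so replicate 2 was the higher one in each group. The sources used here do not say how reads of the shared stretch were assigned, so the level of MS4A7 is uncertain to that extent.

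XPO4 encodes exportin 4, which carries eIF5A and SMAD3 out of the nucleus. It lies at chr13:20777329-20903048 on the minus strand (ENSG00000132953). Its level was 207 and 205 CPM with the combination, against 90.4 and 87.2 CPM with CSA and 219.5 and 294.6 CPM with venetoclax. The combination was 1.21 (SE 0.19) above CSA and −0.32 (SE 0.18) relative to venetoclax, or −0.09 without venetoclax replicate 2. Both venetoclax libraries were above both combination libraries, and CSA was the lowest group, at −1.53 (SE 0.19) against venetoclax, or −1.30 without venetoclax replicate 2. XPO4 was thus lowest with CSA alone and not above both agents.

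In order of level per kilobase of exon with the combination, CHI3L1 was followed by SEMA6B (22.4 CPM per kilobase), XPO4 (19.6), GAS7 (10.4), ADM2 (6.66), THBS1 (5.01), MS4A7 (4.88) and CYP1B1 (3.48). THBS1 and MS4A7 were neighbours in this order at nearly the same level. Replicates of the combination differed by at most 0.19 in log2 CPM for these genes and those of CSA by at most 0.35, against up to 1.70 for venetoclax. Opposite-strand genes overlap exons of THBS1 (FSIP1, by up to 166 bp) and CYP1B1 (RMDN2, by up to 96 bp). The strand setting of the counting is not known, so reads there cannot be told apart. FSIP1 had 26 to 74 counts per library and RMDN2 had 53 to 125, fewer than the 269 to 1600 of THBS1 and the 131 to 650 of CYP1B1.

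Among 9867 genes with a mean of at least 5 CPM, the profile closest to THBS1 and to CYP1B1 was that of RNF114, a ubiquitin ligase, with root mean square differences of 0.10 and 0.20 in centred log2 CPM over 6 libraries. RNF114 held 95.1 and 77.5 CPM with the combination, against 28.98 and 25.9 CPM with CSA and 25.5 and 23.3 CPM with venetoclax. NCF1, a subunit of the phagocyte NADPH oxidase with near-identical pseudogene copies that make its counts uncertain, was closest to CHI3L1 (0.11) and the next after RNF114 for THBS1 and CYP1B1 (0.27 each). For SEMA6B the closest were TREX1, a DNA exonuclease (0.36), and RNF114 (0.36). The closest gene to SEMA6B was thus farther from it than the closest gene was from any other of the 8.

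GAS7 was closest to SLC7A11, the cystine importer (0.09), and ASNS, asparagine synthetase (0.11), both known targets of the stress factor ATF4. ASNS was at 178 and 161 CPM with the combination, against 89.9 and 95.0 CPM with CSA and 45.2 and 51.8 CPM with venetoclax, the same 3 steps as GAS7. ADM2 was closest to NLRP12, a receptor of the inflammasome family (0.10), and S100P, a calcium-binding protein (0.26). XPO4 was closest to LGR4, a receptor for R-spondins (0.12), and IKZF4, a zinc finger factor (0.23), and LGR4 held 96.5 and 91.1 CPM with the combination, against 38.9 and 33.1 CPM with CSA and 108 and 133 CPM with venetoclax. MS4A7 was closest to GGACT, an enzyme of protein crosslink breakdown (0.10), and FMNL3, a formin that builds actin filaments (0.21). Like MS4A7, both were lower in venetoclax replicate 1 than in replicate 2, at 2.17 and 8.01 CPM for GGACT and 7.83 and 18.2 CPM for FMNL3. That gap between replicates is part of the likeness.

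The other genes of each family or pathway were read from lists of related genes. In the 3 comparisons edgeR's quasi-likelihood test called 0 of 12690 genes at an adjusted p under 0.05 (0.00% in each), with 1372 (10.8%), 462 (3.64%) and 609 (4.80%) at an unadjusted p under 0.05 for combination against venetoclax, combination against CSA and CSA against venetoclax. DESeq2 called 311, 56 and 63 and limma-voom 0, 1 and 0. Among genes of the lists DESeq2 called 15, 3 and 7, and edgeR's call of 0 covers every list member named below. The median log2 fold change of all tested genes was −0.01 over venetoclax and 0.00 over CSA.

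Semaphorins, plexins and neuropilins other than SEMA6B, the ligands and receptors of its pathway, were more often lower than higher with the combination, with small medians. Of 21 tested, 6 had a positive log2 fold change over CSA (median −0.09) and 9 over venetoclax (median −0.05, or −0.15 without venetoclax replicate 2). Among all tested genes 49.7% were positive over CSA and 49.1% over venetoclax. At an unadjusted p under 0.05 there were 1 over CSA and 2 over venetoclax, all positive. SEMA4A, a semaphorin of immune cells, was at 104 and 110.3 CPM with the combination, against 91.2 and 90.8 CPM with CSA and 74.0 and 64.7 CPM with venetoclax. NRP1, a co-receptor, had log2 fold changes of 0.59 (SE 0.22) over CSA and 0.17 (SE 0.22) over venetoclax, the second being 0.27 without venetoclax replicate 2. PLXNC1, a plexin, had −0.34 (SE 0.22) over CSA and −0.27 (SE 0.23) over venetoclax, the second being −0.03 without that library.

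Thrombospondins and their receptors without THBS1 numbered 13 tested genes, with 9 positive over CSA (median 0.10) and 7 over venetoclax (median 0.03, or 0.07 without venetoclax replicate 2). The receptors CD36 and CD47 had 0.38 and 0.14 over CSA and 0.03 and −0.15 over venetoclax, or 0.27 and 0.06 without venetoclax replicate 2. ITGA4, an integrin subunit, was at 90.7 and 81.7 CPM with the combination, below 104 and 106 CPM with CSA and 116 and 139 CPM with venetoclax. ITGA5, the fibronectin receptor subunit, was at 0.10 (SE 0.19) over CSA and 0.31 (SE 0.19) over venetoclax, where the value was 0.10 without venetoclax replicate 2. For CHI3L1, 4 related genes were tested, with medians of 0.17 over CSA and 0.01 over venetoclax (0.14 without venetoclax replicate 2). The proposed receptors TMEM219 and CD44 had 0.18 and 0.16 over CSA and 0.05 and −0.09 over venetoclax, or 0.07 and 0.21 over venetoclax without that library. Of the other genes of that list, IL13RA2 had no count in any library, and PTGDR2 and LGALS3 were too low to be tested.

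The aryl hydrocarbon receptor list, without CYP1B1, had 8 tested genes, 6 positive over CSA (median 0.24) and 5 over venetoclax (median 0.34, or 0.16 without venetoclax replicate 2). At an unadjusted p under 0.05, 3 were positive over CSA, and 4 were positive and 1 negative over venetoclax. TIPARP, a mono-ADP-ribosyltransferase induced by the receptor, held 43.9 and 39.2 CPM with the combination, against 24.0 and 18.3 CPM with CSA and 23.3 and 25.2 CPM with venetoclax. NQO1, a quinone reductase, held 63.5 and 60.6 CPM with the combination, against 38.5 and 37.8 CPM with CSA and 34.1 and 20.6 CPM with venetoclax. AHRR, the repressor of the receptor, held 249 and 216 CPM with the combination, against 194 and 186 CPM with CSA and 181 and 133 CPM with venetoclax. These 3 genes were named for the largest differences among genes with combination libraries beyond all single-agent libraries. All 3 lay above, as 10.5% of tested genes did. ARNT, also of this list, lay below, at 49.7 and 58.3 CPM with the combination. It was at 60.5 and 58.8 CPM with CSA and 61.9 and 88.4 CPM with venetoclax. NFE2L2, the negative gene over venetoclax, had −0.66 (SE 0.20), or −0.84 without venetoclax replicate 2. Its value over CSA was 0.17 (SE 0.20). CYP1A1, named after its values were seen, was at 3.42 and 4.40 CPM with the combination, against 1.72 and 0.990 CPM with CSA and 1.22 and 1.11 CPM with venetoclax. The receptor AHR itself overlapped between groups, at 70.4 and 81.5 CPM with the combination, 64.9 and 67.5 CPM with CSA and 79.0 and 126 CPM with venetoclax.

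For ADM2, 3 of 12 related genes were tested. Of these, 0 were positive over CSA (median −0.35) and 1 over venetoclax (median −0.94, or −0.75 without venetoclax replicate 2). CRCP had −0.35 (SE 0.24) over CSA and −1.10 (SE 0.25) over venetoclax, or −1.07 without that library. RAMP1, RAMP2 and RAMP3, the co-receptors, had no count in any library. That allows up to 0.0976 to 0.113 unscaled CPM per library (3 counts, counting error only). The related hormone gene ADM stayed under 1 CPM in every library. ATF4 pathway genes were read beside ADM2 because ADM2 is known to respond to endoplasmic reticulum stress. Of 12 tested, 11 were positive over CSA (median 0.34) and 12 over venetoclax (median 1.68), and all 12 were positive in CSA against venetoclax (median 1.37). Without venetoclax replicate 2 these medians over venetoclax were 1.58 and 1.247. At an unadjusted p under 0.05 these numbers were 3, 12 and 10. ASNS was the 1 gene of the list called without venetoclax replicate 2 (log2 fold change 1.91 over venetoclax, edgeR adjusted p = 0.040), where 0.379% of 12940 genes were called. In that fit the venetoclax arm is 1 library, assumed to vary like the other groups. This list was drawn up as ATF4 pathway genes with regulation like that of ADM2, and its direction was known from earlier work on these libraries. Its likeness to ADM2 is therefore partly a matter of choice and not evidence about ADM2. SESN2, a stress-induced brake on mTOR complex 1, held 25.7 and 22.6 CPM with the combination, against 19.1 and 19.9 CPM with CSA and 7.79 and 5.25 CPM with venetoclax. CHAC1, which degrades glutathione, held 9.84 and 18.8 CPM with the combination, against 9.55 and 8.64 CPM with CSA and 3.19 and 1.75 CPM with venetoclax. In both, as in ADM2, the wider step was between CSA and venetoclax. VEGFA and CEBPB of this list went the other way, with log2 fold changes of 0.83 and 0.53 for the combination over CSA. Their values for CSA over venetoclax were 0.46 and 0.31, or 0.48 and 0.16 without venetoclax replicate 2. VLDLR had 0.31 and 0.27, the second being 0.48 without that library. The other tested genes of the list had the wider step between CSA and venetoclax, though ASNS only just (0.88 and 0.93, or 1.04 without that library).

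Of 19 tested F-BAR proteins other than GAS7, 6 were positive over CSA (median −0.14) and 9 over venetoclax (median −0.13, or −0.05 without venetoclax replicate 2). PSTPIP2, an F-BAR protein of macrophages, was at 34.7 and 34.9 CPM with the combination, against 22.7 and 27.8 CPM with CSA and 24.9 and 27.1 CPM with venetoclax. SRGAP3 and SRGAP2, also F-BAR proteins, had −0.41 (SE 0.19) and −0.15 (SE 0.14) over CSA and −0.16 (SE 0.20) and −0.13 (SE 0.14) over venetoclax, or −0.18 and −0.13 without venetoclax replicate 2. Of 28 exportins, importins and Ran cycle genes other than XPO4, 12 were positive over CSA (median −0.03) and 6 over venetoclax (median −0.20, or −0.14 without venetoclax replicate 2), with 0 at an unadjusted p under 0.05 in either. KPNB1, importin beta, was at 498 and 505 CPM with the combination, against 538 and 519 CPM with CSA and 566 and 749 CPM with venetoclax. IPO5 and IPO11, import receptors, were each at −0.19 over CSA (SE 0.14 and 0.17) and at −0.29 and −0.36 over venetoclax, or −0.31 and −0.23 without venetoclax replicate 2.

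Of 6 tested MS4A genes other than MS4A7, 1 was positive over CSA (median −0.41) and 1 over venetoclax (median −0.32, or −0.20 without venetoclax replicate 2). MS4A3, a gene of granulocyte and monocyte progenitors, was at 53.8 and 56.9 CPM with the combination, against 74.7 and 80.3 CPM with CSA and 80.0 and 118 CPM with venetoclax. MS4A6A, of monocytes, was at 61.8 and 66.9 CPM with the combination, against 81.2 and 80.0 CPM with CSA and 72.2 and 89.3 CPM with venetoclax. Both were named because their combination libraries lay beyond all single-agent libraries, so that position is part of the choice. They lay below, where MS4A7 lay above, as 10.5% of tested genes did. The share of all tested genes that lay below was not counted. Of 17 tested monocyte and macrophage markers 10 were positive over CSA (median 0.10) and 9 over venetoclax (median 0.03 with and without venetoclax replicate 2), with 1 and 0 at an unadjusted p under 0.05. The summed level of the 29 markers of that list was 782 and 797 unscaled CPM with the combination, 822 and 878 with CSA and 1034 and 509 with venetoclax, and C1QB, FCGR3A and MRC1 had no count. Without TMM scaling, the 41.5% of counts on mitochondrially encoded genes lowers the sum of venetoclax replicate 2, at 509. ITGAX, an integrin of macrophages and dendritic cells, was at 35.4 and 32.9 CPM with the combination, against 26.4 and 25.5 CPM with CSA and 28.1 and 20.05 CPM with venetoclax. CCR2, a chemokine receptor of monocytes, was at 28.7 and 19.7 CPM with the combination, against 37.7 and 31.2 CPM with CSA and 38.2 and 29.8 CPM with venetoclax.

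**Figure D4:**
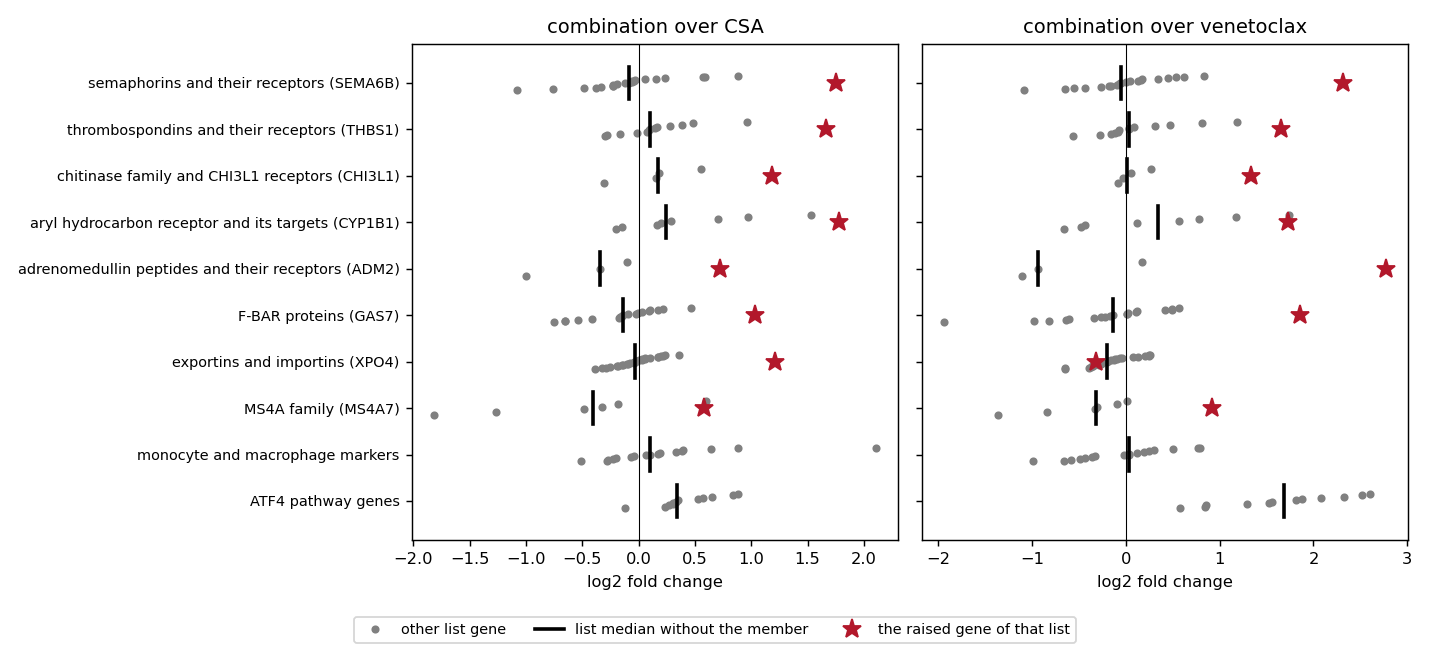
Log2 fold change of the combination over CSA (left) and over venetoclax (right) for each tested gene of 10 lists (grey points). Black bars are list medians without the 8 selected genes, and red stars are the selected genes. The legend calls these raised, though XPO4 was at −0.32 over venetoclax. The family medians lie between −0.41 and 0.24 on the left and between −0.94 and 0.34 on the right. The ATF4 pathway genes sit at a median of 1.68 on the right and 0.34 on the left.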

How the data were processed

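Trizol extraction and KAPA RNA HyperPrep libraries are given per the labels' protocols. The submitters' processing notes name the tools STAR, RSEM and DESeq2 and build hg38, without versions, roles or a strand setting. The authors deposited unnormalized counts, whole numbers for each gene. Of the columns, 2 that no label ties to a sample stayed out, and untreated cells were not analysed here. Symbols matched 20148 identifiers, and loci are from GENCODE release 29 (20224 matched).

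Genes passing filterByExpr were TMM-scaled and tested with edgeR 4.0.16 (R 4.3.3; robust glmQLFit, glmQLFTest, two-sided, 3 residual degrees of freedom, Benjamini-Hochberg adjusted, threshold 0.05), all 6 libraries in a single fit. SE is from that fit, so the SE of the combination over CSA also reflects the spread of the venetoclax libraries. DESeq2 1.42.0, limma-voom (3.58.1), scalings, filters, a replicate block and leaving out each library were alternatives. Between counts of 1 and 20, 64.8% to 66.7% were even numbers per library, so counts may hold more error than the model assumes. Higher counts were not examined in this way. Replicates differed by more than counting noise.

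The 8 genes and the lists were chosen with earlier results of these data known. The text names the 8 genes, for each the 2 genes with the smallest profile difference (centred log2 of CPM plus 0.1), and per list up to 3 genes with mean CPM of at least 5 whose combination libraries lay beyond all single-agent libraries; others were chosen after their values were seen.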

Additional observations from a re-analysis of the deposited data

How the results depend on the processing

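The 24 log2 fold changes of the 8 genes had 360 values under the alternatives, 350 with the sign of the main value. The other 10 concerned THBS1 and CYP1B1 in CSA against venetoclax (4 each), XPO4 against venetoclax and MS4A7 in CSA against venetoclax (1 each). Library size alone moved the median of all genes to 0.26 (combination against venetoclax), −0.04 (combination against CSA) and 0.31 (CSA against venetoclax). The 6 genes above both agents were 7 (with MS4A7) at the lower fold line tried and 5 at 2-fold, where ADM2 became the 1 gene already high with CSA. MS4A7 was already high with CSA (1 gene, leaving 0 between patterns) under library size alone; at the lower line 0 were between patterns. Leaving out single libraries gave 6 to 7 above both, 0 to 1 already high with CSA and 0 to 1 between.

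Calls over all genes for combination against venetoclax, combination against CSA and CSA against venetoclax were 0, 0 and 0 by edgeR as reported. They were 311, 56 and 63 by DESeq2, 15, 4 and 2 with no filter, 1 by limma-voom (combination against CSA) and 24 with only the 4 libraries compared (combination against CSA). Among list genes DESeq2 called 15, 3 and 7, and the fit with no filter called 1. Leaving out each library gave 0 to 3426, 0 to 24 and 0 to 4385 calls, and 0 to 49, 0 and 0 to 57 among list genes. The highest counts came without venetoclax replicate 1, and without replicate 2 calls were 49, 24 and 0. The replicate block gave 0, 0 and 0. With the block and without venetoclax replicate 2, chosen after seeing the data, calls were 229, 72 and 16, and 11, 2 and 2 among list genes. Same-numbered replicates deviated together by correlations of 0.16 to 0.25 across genes, and each comparison has only 2 pairs, so the numbers were not taken to pair the samples. Removal of mitochondrially encoded genes, also added later, gave 0 calls in each comparison. The causes of these differences were not tested.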

Other observations

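The closest tested gene on either side of each selected gene, overlapping genes left out, had these levels. Beside ADM2, SBF1 (6531 bp away) was at 104 and 88.1 CPM with the combination, against 136 and 117 CPM with CSA and 131 and 72.1 CPM with venetoclax. Beside XPO4, EEF1AKMT1 (3370 bp) was at 26.3 and 26.6 CPM with the combination, against 24.2 and 23.4 CPM with CSA and 27.3 and 27.2 CPM with venetoclax. Both lay within the range of the single agents.

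Beside CYP1B1, ATL2 (184977 bp) was at 45.9 and 42.2 CPM with the combination, against 38.2 and 42.1 CPM with CSA and 43.4 and 64.7 CPM with venetoclax. Beside GAS7, USP43 (180917 bp) was at 3.33 and 3.16 CPM with the combination, against 2.81 and 2.64 CPM with CSA and 2.91 and 1.91 CPM with venetoclax. Beside MS4A7, MS4A4A (60537 bp) was at 4.23 and 4.14 CPM with the combination, against 4.86 and 4.68 CPM with CSA and 4.98 and 5.41 CPM with venetoclax. Beside THBS1, GPR176 (199565 bp) was at 3.09 and 2.87 CPM with the combination, against 3.57 and 3.24 CPM with CSA and 2.37 and 1.38 CPM with venetoclax.

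On the farther side, log2 fold changes over CSA were 0.90 (SE 0.36) for CDC42EP3 beside CYP1B1, 0.67 (SE 0.24) for BTG2 beside CHI3L1 and 0.32 (SE 0.26) for MYH3 beside GAS7. They were 0.24 for LATS2 beside XPO4, 0.17 for TNFAIP8L1 beside SEMA6B, −0.08 for CCDC86 beside MS4A7, −0.23 for LMF2 beside ADM2 and −0.61 for FAM98B beside THBS1. Over venetoclax the same genes had 0.18, 0.63, 1.08, 0.16, 0.28, −0.04, 0.06 and −0.91 in that order.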
